A study of Mus musculus with 15 samples.

Results

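The RUNX and Ikaros families are transcription factors of blood cells, and 8 of their genes were followed here in RNA from mouse eosinophils grown in culture. Members were chosen by name: Runx1, Runx2 and Runx3, which encode the DNA-binding RUNX subunits, Cbfb, which encodes their common partner, and Ikzf1, Ikzf2, Ikzf3 and Ikzf5 of the Ikaros family. All 8 were present among the 25075 genes that the 4 RNA count tables share. Ikzf4, another gene of the Ikaros family and itself nicknamed Eos, was read beside them.

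RUNX proteins bind DNA through the Runt domain, and CBFβ strengthens that binding without touching DNA itself. Runx1 is needed for the first blood stem cells, Runx2 for bone, and Runx3 for cytotoxic T cells. Ikaros proteins carry zinc fingers that bind DNA and a second set through which they pair with each other, and they recruit chromatin complexes such as NuRD. Ikzf1 (Ikaros) is used across blood lineages, whereas Ikzf2 (Helios) is best known from regulatory T cells and stem cells and Ikzf3 (Aiolos) from B cells and plasma cells.

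The study's own RNA came from BALB/c bone marrow cells that had not been selected and were cultured for 14 days into eosinophils, called bmEos, in 2 libraries (replicates 1 and 2). The cultures received stem cell factor and FLT3 ligand, 100 ng/mL each, on days 0 to 3 and 10 ng/mL of interleukin 5, which drives eosinophil growth, from day 4 to day 14. The authors also deposited counts that they had made from 1 macrophage library and 1 neutrophil library of other studies. Their strain, age and culture were not known here. These tables do not name a cell type; macrophage and neutrophil were assigned in setting up the comparison and were checked against marker genes. Cell type and study of origin therefore cannot be told apart, and with a single library of each outside cell type no test was run. A gene was counted as higher or lower when both bmEos libraries lay more than 2-fold above or below the outside library after 1 CPM was added to each value, where CPM is the count per 1000000 counts of the file total. In bulk RNA, fewer cells of a type and less RNA per cell cannot be told apart.

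The libraries held 40306679 and 30465490 counts in bmEos, 106940777 in the macrophage library and 6390310 in the neutrophil library, so that 3 counts equal 0.0744, 0.0985, 0.0281 and 0.469 CPM. The 10 eosinophil markers summed to 13349 and 13606 CPM in bmEos, against 3.29 CPM in the macrophage library and 348 CPM in the neutrophil library. The 12 macrophage markers summed to 5423 and 6281 CPM in bmEos, against 14457 CPM in the macrophage library and 930 CPM in the neutrophil library. Of these 12, 10 were lower in both bmEos libraries than in the macrophage library and 2 were higher. The higher ones were Mrc1, at 663 and 718 against 575 CPM, and Msr1, at 242 and 238 against 31.5 CPM. The 13 neutrophil markers summed to 2361 and 2054 CPM in bmEos, against 294 and 3034 CPM in the macrophage and neutrophil libraries. The bmEos cultures therefore held transcripts of all 3 lists. Of the 13 neutrophil markers, 6 were higher in both bmEos libraries than in the neutrophil library (Ly6g, Ngp, Retnlg, S100a9, Mpo and Elane), 6 were lower (Ltf, Camp, Mmp8, Mmp9, Cxcr2 and Csf3r) and 1 lay between, so the label of that library is only partly borne out by its markers. Ly6g, a surface marker of neutrophils, stood at 388 and 381 CPM in bmEos and at 111 CPM in the neutrophil library, whereas Csf3r, the G-CSF receptor, stood at 75.1 and 66.2 CPM in bmEos and at 568 CPM in the neutrophil library. The 20 highest genes took 5.81% and 6.40% of the bmEos counts, 7.21% of the macrophage counts and 1.9% of the neutrophil counts. The labels do not say whether the bmEos libraries came from separate cultures, and the spread between them may be technical.

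The RUNX genes hold a sequence that bears on the family itself, shown here because RUNX proteins recognise the motif TGTGGT, which the other strand shows as ACCACA. RefSeq promoters, taken from 250 bases before to 50 bases after each start on the GRCm38.p6 build, were found for 6 of the 8 genes (not for Ikzf2 and Ikzf3), with 9 starts in all. In 1 promoter each of Runx3, Runx1 and Runx2 the motif occurs as a pair with a gap of 2 bases. The 30 bases around each pair follow, 5′ to 3′ on the strand of the gene, with the motifs in capitals.
Runx3, chr4:135120503-135120532, plus strand: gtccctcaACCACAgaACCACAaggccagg
Runx1, chr16:92826025-92826054, minus strand: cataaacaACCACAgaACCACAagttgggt
Runx2, chr17:44814583-44814612, minus strand: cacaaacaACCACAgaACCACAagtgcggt
The 14 bases from the first motif to the second are identical in the 3 genes. The first motif begins at base -134 relative to the start in Runx3, at base 29 in Runx1 and at base 24 in Runx2, whose promoter has a further single copy of the motif. Of 32851 promoters in the table, searched on both strands, 16.8% hold the motif at least once and 0.332% (109) hold 2 copies on the same strand within 30 bases. The 14 bases occur in 4 promoters of the table, those of the 3 RUNX genes and that of Gm16225, a neighbour of Runx3. The other 6 starts, among them the second starts of Runx1 and Runx3 and those of Cbfb, Ikzf1 and Ikzf5, do not have the motif in this window. A match of letters describes the sequence and does not show binding.

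Ikzf2, Ikzf3 and Ikzf4 set the bmEos libraries apart from both outside libraries, while Ikzf1 was present in all 4 libraries. Of the 8 members, 4 were higher in bmEos than in the macrophage library (Runx2, Runx3, Ikzf2 and Ikzf3) and 0 were lower, where 19.9% of 13200 tested genes were higher and 14.5% lower (34.4% in either direction). Against the neutrophil library 2 members were higher (Ikzf2 and Ikzf3) and 1 was lower (Runx2), where 24.7% of all tested genes were higher and 21.7% lower (46.4% in either direction). Ikzf2 and Ikzf3 were thus the members higher than both, which held for 7.37% of tested genes, and 0 members were lower than both, against 3.84% of tested genes. The median difference over the 8 members was 1.501 on the log2(CPM + 1) scale against the macrophage library and -0.18 against the neutrophil library, beside 0.06 and -0.03 over all tested genes. All 8 members passed the minimum of 1 CPM in at least 1 library.

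**Figure D1:**
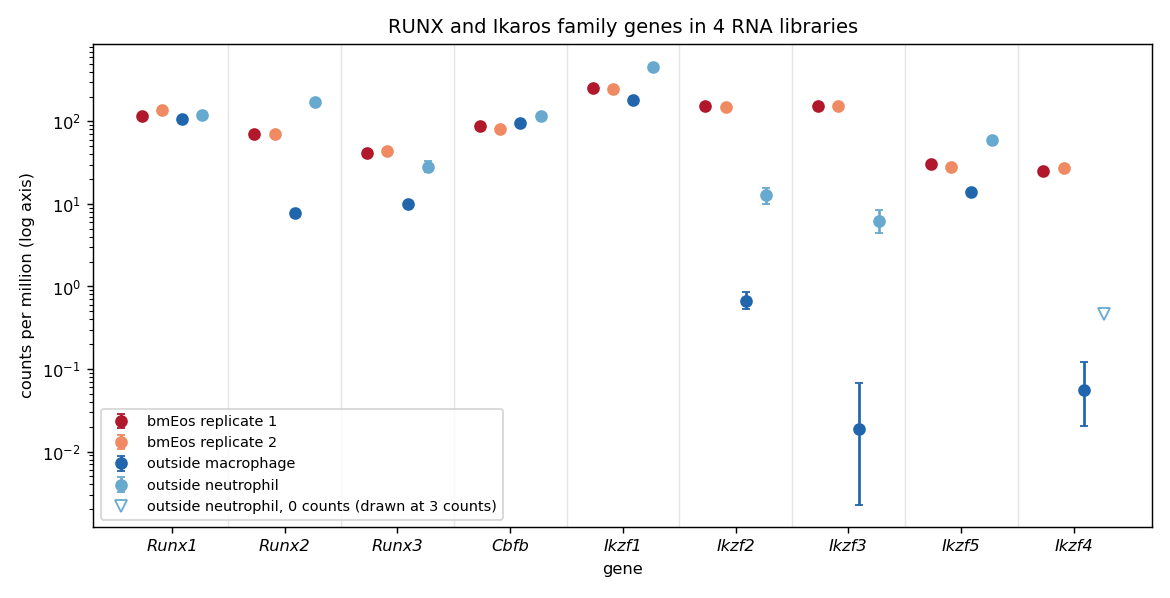
Level of each gene in CPM (log axis) in the 2 bmEos libraries, the outside macrophage library and the outside neutrophil library, with exact 95% Poisson intervals for counting error, which are mostly smaller than the points. Ikzf2 and Ikzf3 stand near 150 CPM in both bmEos libraries and at or below 12.7 CPM in the outside libraries, while Runx1 and Cbfb lie close together in all 4; the open triangle marks 0 counts, drawn at the level of 3 counts.

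Ikzf2, which encodes Helios, had 153 and 151 CPM in bmEos replicates 1 and 2 (6179 and 4598 counts), against 0.673 CPM in the macrophage library (72 counts) and 12.7 CPM in the neutrophil library (81 counts). Both bmEos libraries lay far above both outside libraries, and the neutrophil library above the macrophage library. The bmEos level was 228-fold and 224-fold that of the macrophage library, with 95% counting intervals of 181 to 291 and 178 to 287. Against the neutrophil library it was 12.1-fold and 11.9-fold, with intervals of 9.72 to 15.3 and 9.56 to 15.02. These intervals are exact, cover counting error only, and say nothing of the spread between macrophage or neutrophil libraries.

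Ikzf3, which encodes Aiolos, had 153 CPM in each bmEos library (6166 and 4656 counts), against 0.0187 CPM in the macrophage library, where it had 2 counts, and 6.26 CPM in the neutrophil library, with 40 counts. It was the member with the widest gap to the macrophage library. The ratio to the macrophage library, 8180 in replicate 1, rests on those 2 counts and has a counting interval of 2263 to 67558. The ratio to the neutrophil library was 24.4 in each replicate, with an interval of 17.9 to 34.2.

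Ikzf4 had 25.3 and 27.4 CPM in bmEos (1021 and 834 counts), against 0.0561 CPM in the macrophage library (6 counts) and 0 counts in the neutrophil library. Both bmEos libraries were again above both outside libraries. Set against 3 counts in the neutrophil library, the level was at least 54.0-fold higher in replicate 1 and at least 58.3-fold higher in replicate 2. Against the macrophage library the ratios were 451 and 488, with counting intervals of 207 to 1233 and 223 to 1333.

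The neutrophil library also held transcripts of eosinophil markers, all 10 of them at 1 CPM or more. Relative to the bmEos mean, single markers stood there at between 0.351% (Ccr3, the eotaxin receptor, and Alox15) and 17.3% (Siglecf), with Prg2, the major basic protein gene, at 2.51%. Ikzf2 stood at 8.33% and Ikzf3 at 4.09% of the bmEos mean, inside that range. Ikzf4 had 0 counts there and a bmEos mean of 26.4 CPM. With 3 counts equal to 0.469 CPM in the neutrophil library, Ikzf4 could not be placed inside or below that range. The part that eosinophil transcripts have in these levels was not tested.

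Ikzf2, Ikzf3 and Runx3 are also active in lymphocytes, so lymphoid markers were read beside them. The 10 T and NK cell markers summed to 45.7 and 51.0 CPM in bmEos, against 28.2 CPM in the macrophage library and 13.0 CPM in the neutrophil library. The sums rest on different genes. Cd4 alone had 27.1 CPM in the macrophage library, against 0.298 and 0 CPM in bmEos. Cd3d and Cd3g, chains of the T cell receptor complex, made up most of the bmEos sum, with 19.2 and 21.5 CPM for Cd3d and 20.1 and 25.1 CPM for Cd3g. Cd3e, another chain of the same complex, had 0.0496 and 0 CPM in bmEos, and Cd8a 0.248 and 0.328 CPM. The 7 matched B cell and plasmacytoid dendritic cell markers summed to 19.5 and 17.8 CPM in bmEos, against 14.2 CPM in the macrophage library and 2.19 CPM in the neutrophil library. In bmEos, Cd79a stood at 6.202 and 6.598 CPM, Ebf1 at 5.11 and 2.56 CPM and Pax5 at 0.992 and 1.05 CPM. Cd79b, at 4.12 and 3.74 CPM in bmEos, was higher in the macrophage library, at 11.2 CPM. Transcripts of both lists were thus present in bmEos and in both outside libraries, unevenly within each list. Their part in the levels of Ikzf2, Ikzf3 and Runx3 was not tested.

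Ikzf1, the founding member of the family, had 255 and 247 CPM in bmEos (10275 and 7535 counts), against 181 CPM in the macrophage library and 452 CPM in the neutrophil library. Each bmEos library lay between the outside libraries. The ratio to the macrophage library was 1.41 and 1.37, and that to the neutrophil library 0.563 and 0.547, all short of 2-fold. Ikzf5 (Pegasus), a distant relative that binds other DNA sequences, followed the same order, with 30.1 and 27.8 CPM in bmEos, against 13.8 CPM in the macrophage library and 59.2 CPM in the neutrophil library. It lay just outside the 2-fold rule on both sides, at 2.18 and 2.02 times the macrophage level and at 0.509 and 0.470 times the neutrophil level before 1 CPM was added. The nearest members inside the rule were Runx3 against the macrophage library and Runx2 against the neutrophil library.

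Within the Ikaros family the division of reads differed by library. Shares are of reads and not of molecules, since RNA lengths were not used, so they are compared between libraries and not between genes. Ikzf2 made up 37.6% of the reads of Ikzf1 and Ikzf2 together in bmEos replicate 1 (exact 95% Clopper-Pearson interval 36.8 to 38.3%) and 37.9% in replicate 2 (37.0 to 38.8%). In the macrophage library the share was 0.370% (0.290 to 0.466%), and in the neutrophil library 2.73% (2.17 to 3.38%). In reads, this is 0.601 and 0.610 Ikzf2 reads for each Ikzf1 read in bmEos, against 0.00372 in the macrophage library and 0.0280 in the neutrophil library. The mean share in bmEos was 37.7 ± 0.243% (SD, n = 2), and no interval of an outside library came near it.

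Over the 5 Ikaros genes, Ikzf1 took 41.3% and 40.8% of the reads in bmEos, against 92.6% in the macrophage library and 85.3% in the neutrophil library. Ikzf3 took 24.8% and 25.2% in bmEos, against 0.00956% and 1.18% in the macrophage and neutrophil libraries. Ikzf5 took 4.88% and 4.59% in bmEos, and 7.05% and 11.2% in the macrophage and neutrophil libraries. The summed level of the 5 genes was 617 and 606 CPM in bmEos, 196 CPM in the macrophage library and 530 CPM in the neutrophil library. The share of Ikzf1 was therefore lower, and that of Ikzf3 higher, in each bmEos library than in each outside library.

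**Figure D2:**
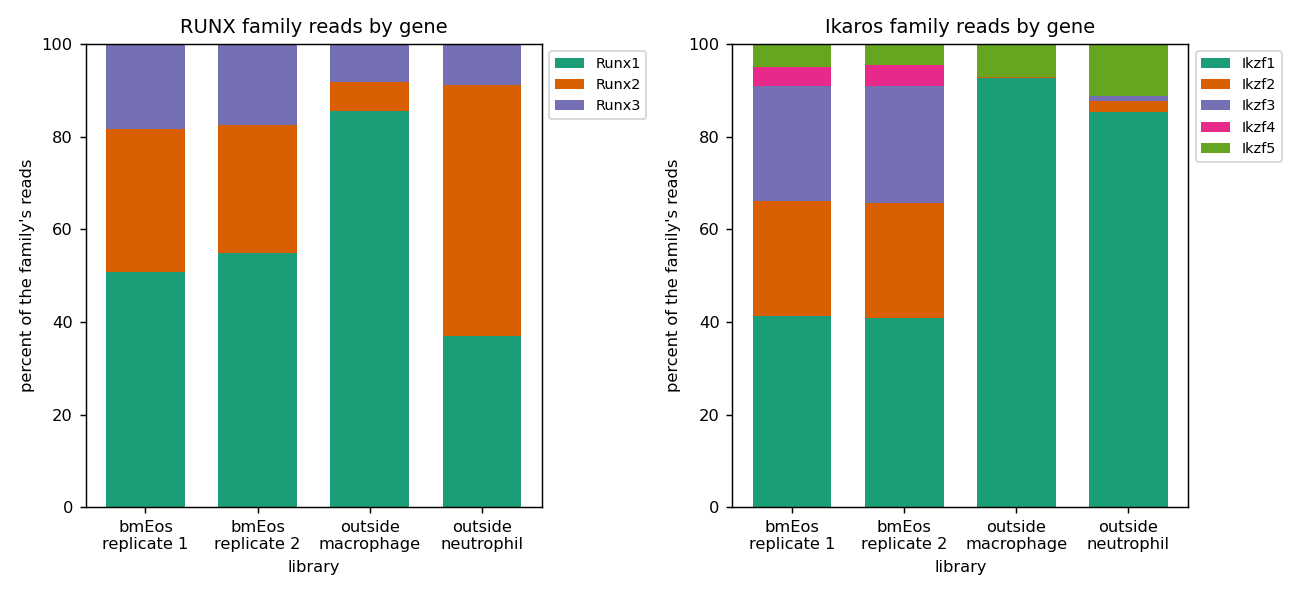
Share of each gene in the reads of its family, in percent of the family's reads, for the RUNX genes (left) and the 5 Ikaros genes (right) in the 2 bmEos libraries, the outside macrophage library and the outside neutrophil library. Ikzf2 and Ikzf3 each take 24.8 to 25.2% in bmEos and at most 2.39% in the outside libraries. Runx1 takes 85.5% of RUNX reads in the macrophage library and Runx2 54.1% in the neutrophil library. For both genes bmEos lie between the outside libraries.

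Among the DNA-binding RUNX subunits the libraries differed most in Runx2 and Runx3 and little in Runx1. Runx1 had 115 and 139 CPM in bmEos (4642 and 4224 counts), against 106 CPM in the macrophage library (11323 counts) and 119 CPM in the neutrophil library (758 counts). The neutrophil value fell between the bmEos values, and the macrophage value was below both. The ratio to the macrophage library was 1.09 in replicate 1 and 1.31 in replicate 2. The bmEos libraries themselves differed by a ratio of 0.831, and their mean was 127 ± 16.6 CPM (SD, n = 2).

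Runx2 had 70.2 and 69.8 CPM in bmEos (2829 and 2125 counts), against 7.83 CPM in the macrophage library (837 counts) and 173 CPM in the neutrophil library (1108 counts). Each bmEos library was above the macrophage library and below the neutrophil library. The level was 8.97-fold and 8.91-fold that of the macrophage library, with counting intervals of 8.30 to 9.70 and 8.22 to 9.67. It was 0.405 and 0.402 times that of the neutrophil library, with intervals of 0.377 to 0.434 and 0.374 to 0.433. Scaling by TMM, which shifts the neutrophil library downward, moved the Runx2 difference from the neutrophil library to -0.99 on the log2 scale, just short of 2-fold, against -1.30 with CPM.

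Runx3 had 41.6 and 44.2 CPM in bmEos (1677 and 1347 counts), against 10.1 CPM in the macrophage library (1079 counts) and 28.3 CPM in the neutrophil library (181 counts). Both bmEos libraries were above both outside libraries, though for the neutrophil library by less than 2-fold. The ratios were 4.12 and 4.38 to the macrophage library and 1.47 and 1.56 to the neutrophil library. The interval nearest to equality, 1.26 to 1.72 in replicate 1, covers counting error only.

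Cbfb, the partner subunit, had 87.4 and 81.6 CPM in bmEos (3522 and 2487 counts), against 96.6 CPM in the macrophage library and 116 CPM in the neutrophil library. Both bmEos values were below both outside values, by 0.904 and 0.845 times relative to macrophage and 0.753 and 0.703 times relative to neutrophil, which does not reach 2-fold. For each read of Runx1, Runx2 and Runx3 combined there were 0.385 and 0.323 Cbfb reads in bmEos, 0.781 in the macrophage library and 0.362 in the neutrophil library. The summed level of the 3 RUNX genes was 227 and 253 CPM in bmEos, 124 CPM in the macrophage library and 320 CPM in the neutrophil library. Between libraries the RUNX sum thus varied more than Cbfb did.

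RUNX usage, the division of reads among Runx1, Runx2 and Runx3, differed between bmEos, the macrophage library and the neutrophil library. Runx1 took 50.7% and 54.9% in bmEos, against 85.5% (84.9 to 86.1%) in the macrophage library and 37.0% (34.9 to 39.2%) in the neutrophil library. Runx2 took 30.9% and 27.6% in bmEos, against 6.32% (5.91 to 6.75%) and 54.1% (51.9 to 56.3%) in the macrophage and neutrophil libraries. Runx3 took 18.3% and 17.5% in bmEos, against 8.15% (7.69 to 8.63%) and 8.84% (7.65 to 10.2%). As means, the bmEos shares were 52.8 ± 2.93% for Runx1, 29.3 ± 2.34% for Runx2 and 17.9 ± 0.586% for Runx3 (SD, n = 2). For Runx1 and Runx2 the bmEos shares lay between those of the outside libraries, and for Runx3 above both. The outside intervals for Runx3 overlapped each other. All these intervals cover counting error in a single library, so they cannot order macrophages and neutrophils as cell types in any of the 3 shares. All 3 genes with the paired motif printed above were read in each library, Runx1 at a like level and Runx2 and Runx3 at unlike ones.

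**Figure D3:**
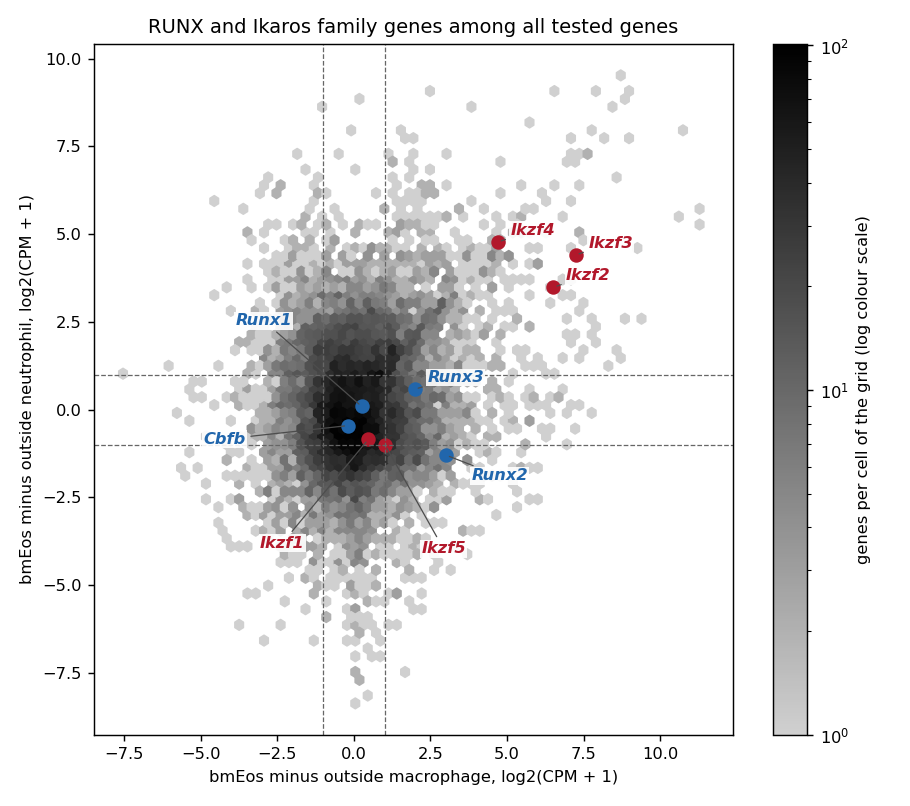
Difference of bmEos minus outside macrophage (horizontal) and bmEos minus outside neutrophil (vertical), both in log2(CPM + 1), for 13200 tested genes in grey and for the RUNX genes and Cbfb (blue) and the Ikaros genes (red); dashed lines mark 2-fold. Ikzf2, at 6.52 and 3.48, and Ikzf3, at 7.24 and 4.41, lie to the upper right of most genes, Runx2 lies at 3.01 and -1.30, and Runx1 and Cbfb lie within the dashed lines; the position of Ikzf4 depends on the added 1 CPM because it had 0 counts in the neutrophil library.

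The bmEos libraries agreed closely for most members. The ratio of replicate 1 to replicate 2 was 1.00 for Ikzf3, 1.01 for Runx2, 1.02 for Ikzf2, 1.03 for Ikzf1, 1.07 for Cbfb, 1.08 for Ikzf5 and 0.941 for Runx3. Runx1, at 0.831, was the member with the widest gap, and 79.3% of the 11908 genes at 1 CPM or more in both libraries had a smaller one. The libraries were not alike in other respects. The 8 stromal and osteoblast markers, of interest because Runx2 directs bone formation, summed to 2450 CPM in replicate 1 and 634 CPM in replicate 2, against 265 CPM in the macrophage library and 7.82 CPM in the neutrophil library. All 8 were higher in replicate 1, with a median ratio of 3.89 and Ibsp, a bone matrix protein gene, at 9.43 and 0.263 CPM. Runx2 was equally high in both replicates to within 1%, and at 173 CPM it was highest in the neutrophil library, where 7 of these 8 markers had 0 counts. The part of stromal transcripts in the bmEos level of Runx2 was not tested.

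**Figure D4:**
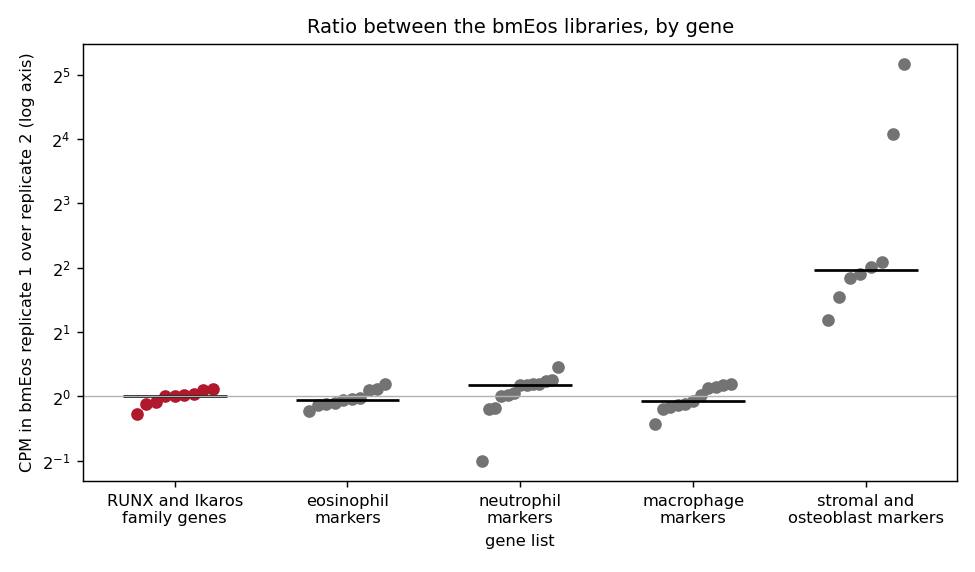
Ratio of CPM in bmEos replicate 1 to replicate 2 (log axis) for each of the 8 members and Ikzf4 and for 4 lists of marker genes, 1 point per gene, with bars at the medians; Marco, at 0 counts in both libraries, is not drawn. The RUNX and Ikaros genes lie between 0.831 and 1.08, while the stromal and osteoblast markers lie between 2.268 and 35.9.

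Other genes of the pathways were read by the same rule, from 4 lists of partners and targets. Of 18 coregulators that bind RUNX proteins, 17 were tested: 1 was higher and 1 lower than in the macrophage library, and 5 were higher and 5 lower than in the neutrophil library. Of all tested genes, 19.9% were higher and 14.5% lower than in the macrophage library, and 24.7% were higher and 21.7% lower than in the neutrophil library. Their median differences were 0.10 and -0.11 on the log2(CPM + 1) scale. Cbfa2t3, a corepressor of the ETO family, was the gene of this list higher than both, with 69.5 and 75.4 CPM in bmEos, against 5.64 CPM in the macrophage library and 7.82 CPM in the neutrophil library. Tle5, a short Groucho-related protein gene, had 269 and 288 CPM in bmEos, 298 CPM in the macrophage library and 145 CPM in the neutrophil library. Ep300, a histone acetyltransferase gene, had 271 and 284 CPM in bmEos, 259 and 613 CPM in the macrophage and neutrophil libraries. Tle3, a Groucho corepressor gene, had 206 and 216 CPM in bmEos, 159 and 501 CPM in the macrophage and neutrophil libraries. Ep300 and Tle3 were thus lower than in the neutrophil library and within 2-fold of the macrophage library.

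Of the 17 genes of the corepressor complexes that Ikaros proteins recruit, 0 were higher and 1 lower than in the macrophage library. Against that library 34.4% of all tested genes were called in either direction. Against the neutrophil library 2 were higher and 3 lower, where 46.4% of all tested genes were called. The medians against the macrophage and neutrophil libraries were -0.13 and -0.26 on the log2(CPM + 1) scale. Chd4, the NuRD remodelling ATPase, had 458 and 466 CPM in bmEos, 793 CPM in the macrophage library and 557 CPM in the neutrophil library. Ctbp1 had 213 and 205 CPM in bmEos, 216 and 172 CPM in the macrophage and neutrophil libraries, and Mta2 181 and 176 CPM, against 257 and 227 CPM. Thalidomide analogues degrade IKZF1 and IKZF3 in human cells through the ubiquitin ligase around cereblon. Of its 6 genes, 0 were higher or lower than in the macrophage library. Against the neutrophil library 0 were higher and 2 lower. Both counts stand beside the same shares of all tested genes. Ddb1 had 397 and 349 CPM in bmEos, against 674 and 199 CPM in the macrophage and neutrophil libraries, Cul4a 79.0 and 71.3 CPM, against 113 and 124 CPM, and Rbx1 72.9 and 67.3 CPM, against 68.1 and 55.6 CPM.

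Most tested genes with described RUNX sites in blood cells were higher in bmEos than in each outside library taken singly, and fewer were higher than in both. Of 13 such genes 11 were tested: 7 were higher and 1 lower than in the macrophage library, and 8 were higher and 0 lower than in the neutrophil library, with median differences of 2.07 and 1.76 on the log2(CPM + 1) scale. The shares of all tested genes were 19.9% and 14.5%, and 24.7% and 21.7%, as above. The list was drawn up with the high level of some of its genes in bmEos already known, so its count is no independent evidence of direction. Csf2rb, the shared signalling chain of the interleukin 5 receptor, had 2858 and 3723 CPM in bmEos, against 443 CPM in the macrophage library and 597 CPM in the neutrophil library; it has a near-identical copy, Csf2rb2, with which it may share reads. Csf1r, the receptor of macrophage growth factor, had 943 and 1053 CPM in bmEos, against 3635 and 392 CPM in the macrophage and neutrophil libraries. Spi1, which encodes PU.1, had 411 and 436 CPM in bmEos, against 365 and 204 CPM. These 3 genes went different ways under the 2-fold rule. Csf2rb was higher than in both outside libraries. Csf1r was lower than in the macrophage library and higher than in the neutrophil library. Spi1 was higher than in the neutrophil library only.

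Besides Csf2rb, 4 genes of that list were higher than both outside libraries. Pf4, a platelet chemokine gene, had 87.6 and 104 CPM in bmEos, against 21.6 and 0.156 CPM in the macrophage and neutrophil libraries. Bcl2, which blocks apoptosis, had 26.3 and 28.4 CPM in bmEos, against 3.53 and 0.469 CPM. The neutrophil value of Bcl2 equals 3 counts. Mpo, the myeloperoxidase gene of immature granulocytes, had 23.5 and 26.7 CPM in bmEos, against 4.01 and 2.66 CPM, and Elane, a neutrophil protease gene, 3.52 and 7.09 CPM, against 1.14 and 0.782 CPM. Elane differed by a ratio of 0.497 between the bmEos replicates themselves.

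Genes of like pattern were sought by the distance between centred log2(CPM + 1) values over the 3 cell types, among 9128 other genes averaging 10 CPM or more. Nearest to Ikzf2 were Sema7a at a distance of 0.270, Ear2 at 0.349, Tuba8 at 0.365, Cd55 at 0.376 and Ear6 at 0.469. Ear2 and Ear6 encode eosinophil ribonucleases, which have close copies, and Cd55 encodes an inhibitor of complement. Sema7a, a membrane-anchored semaphorin gene, had 538 and 589 CPM in bmEos, against 3.75 CPM in the macrophage library and 41.8 CPM in the neutrophil library. Nearest to Runx1 were Rnaseh1 at 0.00667, Tubgcp3 at 0.0184 and Edc4 at 0.0213, genes whose levels were nearly flat over the 3 cell types. Nearest to Ikzf1 were Bcor at 0.0161, Ube2a at 0.0179 and Gpatch2l at 0.0333, all highest in the neutrophil library and lowest in the macrophage library. The distance rests on 3 points per gene, and with flat or monotone patterns many genes lie close.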

How the data were processed

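The members, gene lists and markers were chosen with earlier results of these data known. The authors deposited whole-number read counts per gene symbol, 1 table per RNA library, not normalized. STAR 2.5 and featureCounts, Trim Galore 0.4.2, Picard 1.89 and the mm9 build are listed, with no roles, per the submitters' processing notes. The strand setting of the counting is not given in the sources used here; overlapping genes are therefore uncertain. Of the 25101 symbols per table, 26 had turned into dates in the outside tables and were left out of all comparisons but not of the totals. CPM, the deposited count over the file total, was computed here, with exact Poisson and Clopper-Pearson intervals at the 95% level, which cover counting error only. Genes with 1 CPM or more in at least 1 library were tested by the 2-fold rule with a pseudocount of 1 CPM, checked on simulated counts. Named genes are the 8 members and Ikzf4, per list the 3 highest in bmEos and those called the same way against both outside libraries, marker genes that check a label, and the nearest 5 genes to Ikzf2 and 3 each to Runx1 and Ikzf1. All listed symbols but Ighm matched the tables. Peak lists, on mm9, were not analysed here, as gene positions of that build were not used. For scaling alternatives, factors were computed by TMM (edgeR 4.0.16) and by DESeq2 1.42.0 in R 4.3.3, with no model fitted; other steps used Python 3.11.15, pandas 2.3.3 and scipy 1.17.1.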

Additional observations from a re-analysis of the deposited data

How the results depend on the processing

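Ikzf2 and Ikzf3 stayed higher in bmEos than in both outside libraries under all 10 alternatives to scaling, filter, pseudocount, fold and replicates, and Runx2 and Runx3 stayed higher than in the macrophage library. The number of members lower than in the neutrophil library, 1 in the text, was 0 with TMM scaling, 0 at a 3-fold threshold and 3 at a 1.5-fold threshold (Runx2, Ikzf1 and Ikzf5), and it ranged from 1 to 2 when a bmEos replicate was left out, Ikzf5 joining Runx2 without replicate 1. Ikzf5 joined the genes higher than in the macrophage library with a pseudocount of 0.1, at 1.5-fold and without replicate 2. This made 5 members there. TMM changed the background as well: 17.2% of tested genes were then higher and 19.3% lower against macrophages, and 29.1% and 15.4% against neutrophils, with medians over all tested genes of -0.12 and 0.24 on the log2(CPM + 1) scale. Read shares of the RUNX and Ikzf genes need no scaling; without either replicate the Ikzf2 share was 37.6 to 37.9%. Counts per kb could not be computed and peaks at the genes were not analysed, as transcript lengths and mm9 gene positions were not used here. No paired analysis was possible because the outside libraries carry no replicate number. The single outside libraries, and the 6390310 counts of the neutrophil library, limit every comparison.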

Other observations

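The neutrophil library had Kit, the receptor of stem cell factor, at 75.0 CPM and Cd34 at 58.1 CPM, against 24.3 and 20.0 CPM for Kit and 22.5 and 23.8 CPM for Cd34 in bmEos replicates 1 and 2. Of the 5 progenitor markers read, these 2 were lower in both bmEos libraries than in the neutrophil library and 3 were higher. Flt3 had 2.58 and 3.45 CPM in bmEos, against 0 CPM in the neutrophil library. Hoxa9 had 3.45 and 1.38 CPM, against 0 CPM, and Meis1 6.90 and 4.83 CPM, against 0.782 CPM. In bmEos, Itga2b, an integrin gene of platelets, stood at 307 and 310 CPM while Gp9, a platelet glycoprotein gene, stood at 2.33 and 1.90 CPM. They belong to a list of 7 megakaryocyte and erythroid markers, of which 4 reached 1 CPM in each bmEos library. The others that did so were Pf4, at 87.6 and 104 CPM, and Ppbp, at 8.73 and 17.2 CPM. Gp1bb, Klf1 and Hba-a1 stayed below 1 CPM. Nfe2, a factor of platelet and red cell formation and a described RUNX target, had 370 and 381 CPM in bmEos, against 2.55 CPM in the macrophage library and 238 CPM in the neutrophil library. Kit, Cd34, Itga2b, Gp9 and Nfe2 were picked with their values in view.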
